A study of Arabidopsis thaliana with 28 samples.

Results

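Transcripts of the Arabidopsis thaliana mutant mos11 were divided between nucleus and cytoplasm by what they encode, and the division is described here across gene functions. Messages for photosynthesis, carbon fixation, ribosomal proteins, respiration, histones, actins and tubulins lay on the cytoplasmic side. Those for receptor-like proteins and kinases, intracellular immune receptors, ion pumps, sugar and metabolite carriers and pentatricopeptide repeat proteins lay on the nuclear side. So did 142 of the 171 long non-coding RNAs that could be tested. The comparison takes in 10 of the 18 libraries of the series: 5 nuclear libraries of mos11 set against its 5 cytoplasmic libraries, chosen by their column names in the count table. Of 30901 genes in the table, 16207 passed a filter on low counts and were tested. A gene could pass that filter through the libraries of a single fraction.

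The series asked, per its design text, whether mRNA export is defective in mos11. Rosettes of mos11 and of the wild type Col-0, both grown in long days, were taken at 14 days, and nuclei were parted from cytoplasm by differential centrifugation. Col-0 has 4 libraries of each fraction, used here only to set the mos11 ratio beside that of the wild type. The labels name no allele for mos11, no treatment and no second mutation, and they do not say whether replicates came from separate cultures of plants, so p-values measure only the spread between these samples.

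An mRNA is capped, spliced and cut at its end in the nucleus, is loaded with export factors, and leaves through the nuclear pores. MOS11 is a small RNA-binding protein that works with the RNA helicase UAP56 of the export machinery, and its loss was first selected because it damps the overactive immune receptor SNC1. Messages for secreted and membrane proteins are translated on the endoplasmic reticulum, a membrane that is continuous with the outer envelope of the nucleus. How much of that membrane each preparation held was not tested.

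Levels are CPM, counts set against the total of each library and scaled with edgeR's TMM factors, and the log2 ratio is nucleus over cytoplasm, so that positive values are nuclear and negative ones cytoplasmic. A gene was called at an adjusted p under 0.05 in edgeR's quasi-likelihood test with Benjamini-Hochberg adjustment over the 16207 genes. Each library is scaled within itself, and the ratio therefore compares a gene's place within the nuclear RNA with its place within the cytoplasmic RNA; it does not say which portion of a cell's molecules sits in either. Scaled by library totals in place of TMM factors, the median ratio of all genes moved by 1.115 on the log2 scale. Medians of groups of genes are therefore to be read against the median of all tested genes, which was 0.18. The calls test for any difference between the scaled fractions, not against that median, so they move with the scaling. Shares of counts are percentages of raw library totals, without TMM factors. With library totals the median ratio of all genes was 1.296. Total counts were 1966574 to 18213517 in the nuclei, replicate 2 being the deepest, and 907270 to 1280371 in the cytoplasm. All cytoplasmic libraries were run on both flow cells but only 1 nuclear one was, so that fraction and flow cell cannot be told apart. Means are given ± SD over 5 libraries in each fraction, and log2 ratios ± approximate SE.

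MOS11 itself (AT5G02770, chr5:627034-629280, minus strand) had 183, 166, 169.6, 166 and 158 CPM in the 5 nuclear libraries, against 4.61, 7.26, 10.7, 11.1 and 7.84 CPM in the 5 cytoplasmic libraries. The nuclear level was high in every library and the fractions were far from overlapping. The 20.5-fold difference (log2 ratio 4.35, approximate SE 0.17, edgeR adjusted p = 6.59e-19) was set beside 205.3 ± 14.7 CPM in nuclei and 108 ± 17.8 CPM in cytoplasm of Col-0 (n = 4 each), where the log2 ratio was 0.90. Reads of the gene were thus still present in mos11 nuclei, and a gene on the other strand overlaps it, so a part of them could belong to that gene.

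Markers of leaf cell types were read to see what the rosettes held. All 5 mesophyll markers were higher in the cytoplasm, with 0.846% ± 0.0461 of the nuclear counts and 4.31% ± 0.139 of the cytoplasmic counts. All 5 tested guard cell markers were higher in the nucleus, 4 of 5 epidermal ones were, and of 6 vascular ones 1 was nuclear and 2 cytoplasmic. In bulk tissue, fewer cells of a type and less RNA per cell cannot be told apart. Of 6 root markers tested, 2 were nuclear and 3 cytoplasmic, and the list took 0.0148% ± 0.000964 of the nuclear counts and 0.00953% ± 0.000808 of the cytoplasmic counts. Their part in any result was not tested. None of 5 flower and pollen markers and none of 6 seed markers reached the count filter.

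In all, 6613 genes (40.8% of those tested) were nuclear, meaning called higher there, and 5726 (35.3%) were cytoplasmic, so that 76.1% of genes were called in one direction or the other. A second rule asked for a 4-fold difference as well: 2024 genes (12.5%) passed it on the nuclear side and 2157 (13.3%) on the cytoplasmic side. These counts rest on the TMM scaling. With library totals 11060 genes were nuclear and 2967 cytoplasmic, and 5257 and 759 passed the 4-fold rule. The ratio ran from -1.06 at the lower quartile to 1.23 at the upper. Cytoplasmic RNA was the more concentrated: the 10 genes with the most counts took 2.32% to 2.44% of a nuclear library and 16.3% to 17.9% of a cytoplasmic one. The plot of class medians orders 48 classes, formed from the wording of the gene descriptions, by their median ratio in mos11.

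**Figure D1:**
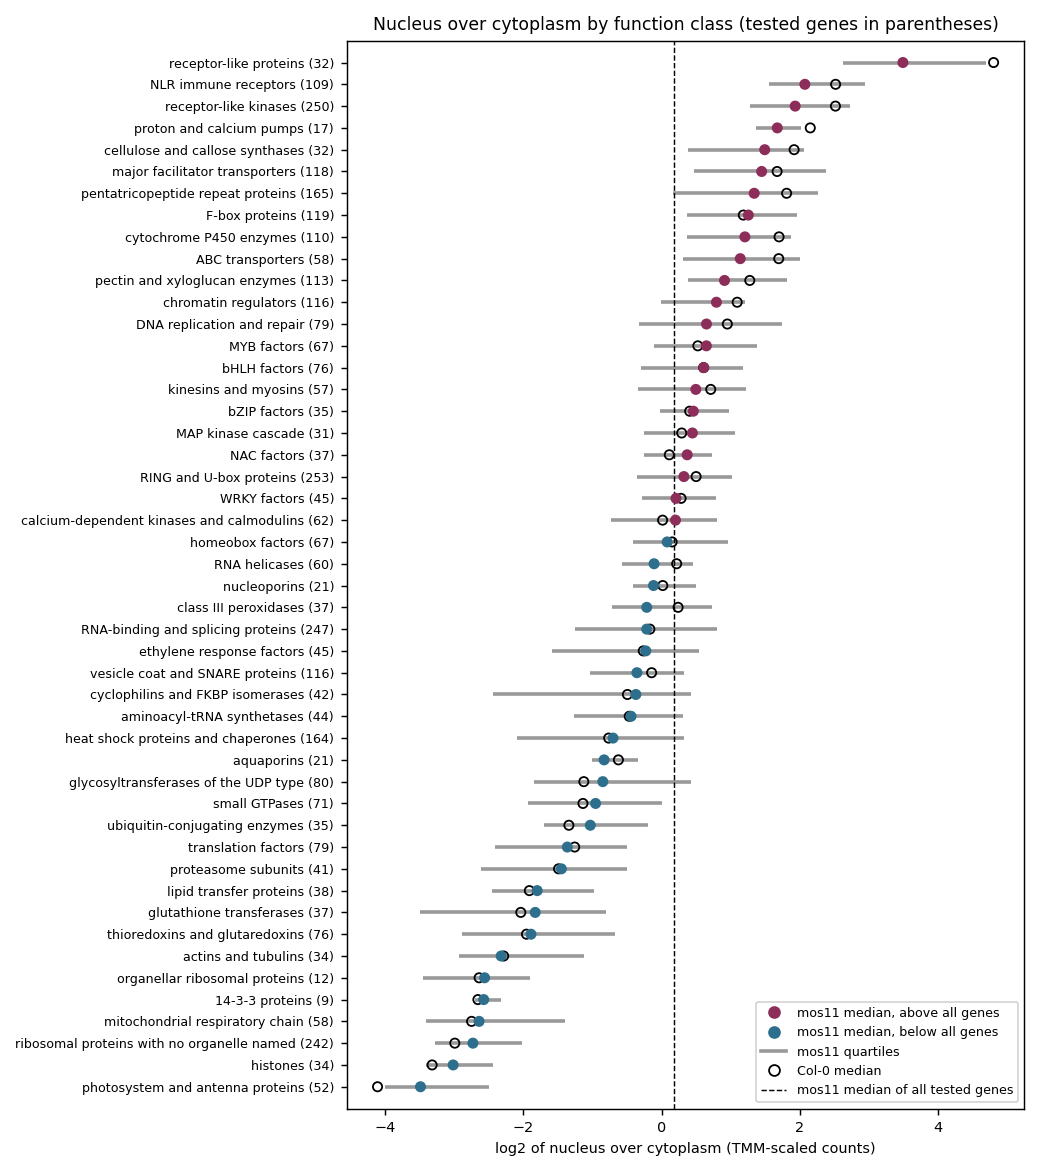
Median log2 ratio of nucleus over cytoplasm in mos11 (filled points, grey bars for the quartiles) and in Col-0 (open circles) for 48 function classes, with the number of tested genes in parentheses and the mos11 median of all tested genes as a dashed line. Receptor-like proteins stand at the nuclear end with a median of 3.49 and photosystem proteins at the cytoplasmic end with -3.49.

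Photosystem and antenna proteins had the most cytoplasmic median of the 48 classes. Of 52 tested genes for photosystem and light-harvesting proteins, 46 (88.5%) were higher in the cytoplasm and 42 of these by at least 4-fold, with a class median of -3.49. CAB1 (AT1G29930, chr1:10477885-10479114, plus strand), an antenna protein that holds chlorophyll, had 1144, 1019, 1234, 1219.7 and 1263 CPM in the 5 nuclear libraries, against 18715, 18335, 15444, 13858 and 15099.8 CPM in the 5 cytoplasmic libraries. No nuclear library came near the lowest cytoplasmic one, and the difference was 13.9-fold (log2 ratio -3.79, approximate SE 0.11, edgeR adjusted p = 3.26e-21). DRT112, a plastocyanin that carries electrons between the photosystems, stood at 241 ± 8.31 CPM in nuclei and 11098 ± 956 CPM in cytoplasm, a 46-fold difference (edgeR adjusted p = 2.27e-24). ELIP2, which guards chlorophyll under strong light, was 74-fold higher in the cytoplasm (4.89 ± 1.04 CPM in nuclei and 372 ± 66.2 CPM in cytoplasm, edgeR adjusted p = 1.47e-19), and the thylakoid phosphoprotein AT3G47070 53.3-fold (edgeR adjusted p = 9.67e-22). The reads of CAB1 and of its near-identical neighbours may have been split between them in counting. Only 3 of the class were higher in the nucleus, and all 3 belong to the PsbP family, which includes lumen proteins of photosystem II: AT3G05410 at 1.07 ± 0.27, PSBP-2 at 1.63 ± 0.39 and AT2G28605 at 1.12 ± 0.33 on the log2 scale. They averaged 17.8, 9.87 and 12.3 CPM in the nucleus.

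Carbon fixation followed the same division. Every one of the 19 Calvin cycle genes was higher in the cytoplasm, 17 of them by at least 4-fold, and the list took 1.18% ± 0.0705 of the nuclear counts and 5.81% ± 0.191 of the cytoplasmic counts. PGK1 (AT3G12780, chr3:4060920-4063306, minus strand), the phosphoglycerate kinase of the chloroplast, had 113, 117, 126, 91.8 and 118 CPM in the 5 nuclear libraries, against 2784, 2803, 2758, 2405 and 2656 CPM in the 5 cytoplasmic libraries. Its lowest cytoplasmic library was far above every nuclear one (23.7-fold, log2 ratio -4.57, approximate SE 0.12, edgeR adjusted p = 1.74e-22). The small subunits of Rubisco differed by 13.4-fold for RBCS1A and 29-fold for RBCS3B, and the aldolase FBA2 by 14.2-fold. RCA, the activase of Rubisco, showed a smaller difference of 7.88-fold, at 2079 ± 140.4 CPM in nuclei and 16375 ± 695 CPM in cytoplasm (edgeR adjusted p = 9e-20), and it was still among the 10 genes with the most counts in the nucleus. CA1, a carbonic anhydrase that supplies carbon dioxide, was 11-fold higher in the cytoplasm.

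Chlorophyll synthesis was cytoplasmic in 18 of 19 genes, with a list median of -2.12. GSA2, an early enzyme of the pathway, was 13.3-fold higher in the cytoplasm, GUN4 8.24-fold and GUN5, the large subunit of the magnesium chelatase, 3.90-fold. ALB1, another subunit of the same chelatase, was the exception, at 0.41 ± 0.10 (edgeR adjusted p = 0.000616). Starch metabolism was mixed: 15 of 24 genes were cytoplasmic and 6 nuclear. The starch synthase GBSS1 was 10.7-fold higher in the cytoplasm and the beta-amylase CT-BMY 5.12-fold.

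Genes of the mitochondrial respiratory chain were cytoplasmic in 45 of 58 cases and nuclear in 7, with a median of -2.64. AT5G11770, a subunit of complex I, had 23.8 ± 3.31 CPM in nuclei and 342 ± 37.4 CPM in cytoplasm and was 14.4-fold higher in the cytoplasm (edgeR adjusted p = 5.84e-21). AT5G61310, of the cytochrome c oxidase subunit Vc family, went the other way, with 688, 754, 678, 724 and 744 CPM in the 5 nuclear libraries, against 24.2, 24.2, 18.4, 28.9 and 47.1 CPM in the 5 cytoplasmic libraries. That is a 24.7-fold nuclear difference with no overlap (log2 ratio 4.63, approximate SE 0.15, edgeR adjusted p = 1.45e-20), but the annotation places another gene over it on the same strand, and reads of both could not be told apart. Thioredoxins and glutaredoxins, small proteins that reduce disulphides, were higher in the cytoplasm in 58 of 76 genes (median -1.89).

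Of 242 tested genes for ribosomal proteins with no organelle in their description, 234 (96.7%) were higher in the cytoplasm, and these genes took 0.782% ± 0.0219 of the nuclear counts and 2.73% ± 0.148 of the cytoplasmic counts. Another 45 of the class did not reach the count filter. RP1 (AT1G43170, chr1:16266553-16268945, plus strand), a protein of the large subunit, had 108, 94.7, 112, 96.5 and 109 CPM in the 5 nuclear libraries, against 1085, 975, 1011, 1017 and 1082 CPM in the 5 cytoplasmic libraries. All cytoplasmic values were several times the nuclear ones (9.96-fold, log2 ratio -3.32, approximate SE 0.10, edgeR adjusted p = 3.39e-21). The 5 members higher in the nucleus were AT5G19025 (2.21 ± 0.44), AT5G15260 (1.23 ± 0.30), AT4G38090 (1.09 ± 0.21), AT5G47940 (0.73 ± 0.20) and AT3G06180 (0.71 ± 0.32). AT5G15260, AT5G19025 and AT3G06180 are described as L34e superfamily proteins and AT4G38090 as a protein with an S5 domain. AT3G06180 missed the threshold without mos11 nuclear replicate 1 (edgeR adjusted p = 0.0829) or 2 (0.0940) and without cytoplasmic replicate 2 (0.171), 3 (0.0668) or 5 (0.0879), and its libraries overlapped between the fractions. All 12 tested genes described as ribosomal proteins of an organelle were higher in the cytoplasm as well, among them PSRP5 of the plastid at 9.40-fold.

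Translation factors were higher in the cytoplasm in 60 of 79 genes. AT5G60390, an elongation factor that brings aminoacyl-tRNA to the ribosome, had 176, 180.5, 184, 177 and 198 CPM in the 5 nuclear libraries, against 2762, 2599.9, 2724, 2427 and 2657 CPM in the 5 cytoplasmic libraries. No nuclear value reached the cytoplasmic range (14.4-fold, log2 ratio -3.85, approximate SE 0.09, edgeR adjusted p = 4.05e-23). Among the 8 nuclear members, AT1G21160, of the initiation factor 2 family, had the most counts, at 106 ± 5.79 CPM in nuclei and 28.9 ± 6.96 CPM in cytoplasm. The synthetases that charge tRNAs were less one-sided, with 26 of 44 cytoplasmic, 2 of them by at least 4-fold, and 9 nuclear (median -0.44). Together they took 0.331% ± 0.00312 of the nuclear counts and 0.233% ± 0.0117 of the cytoplasmic counts, the larger share being the nuclear one. AT1G29880, which charges tRNA with glycine, was 4.85-fold higher in the cytoplasm.

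Within protein turnover, subunits of the proteasome and the substrate receptors that feed it lay on opposite sides. Of 41 proteasome genes, 31 were higher in the cytoplasm, among them RPN1A of the regulatory particle at 83.8 ± 3.70 CPM in nuclei and 343 ± 37.5 CPM in cytoplasm (log2 ratio -2.03, approximate SE 0.10, edgeR adjusted p = 1.84e-16). The 3 on the nuclear side were AT1G53780, AT1G62920 and PA200. AT1G53780, described as an ATPase of the regulatory complex, had 231, 229, 233, 235 and 220.2 CPM in the 5 nuclear libraries, against 16.1, 21.8, 18.4, 44.4 and 28 CPM in the 5 cytoplasmic libraries, and its nuclear values were all several times the highest cytoplasmic one. AT1G62920, described as a maturation factor, had 2.44 ± 0.62 and PA200, an activator that caps the proteasome, had 0.47 ± 0.11. By contrast, 80 of 119 tested F-box genes, which pick targets for ubiquitin ligases, were nuclear and 11 cytoplasmic (median 1.25), while 496 of 615 F-box genes did not reach the filter. RING and U-box ligases, with 112 nuclear and 56 cytoplasmic genes of 253, had a median of 0.32, close to that of all genes. AT5G25560, a RING-type protein, was 23.9-fold higher in the nucleus, although another gene overlaps it on the same strand.

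Ubiquitin-conjugating enzymes were higher in the cytoplasm in 21 of 35 genes, UBC10 by 5.26-fold. UBC23 (0.77 ± 0.18) and UBC37 (1.04 ± 0.45) were the nuclear members. UBC37 missed the threshold without mos11 nuclear replicate 1 (edgeR adjusted p = 0.0596), 2 (0.0540) or 5 (0.0510) and without cytoplasmic replicate 1 (0.0947), 3 (0.0653) or 4 (0.0677). Heat shock proteins and chaperones were cytoplasmic in 93 of 164 genes and nuclear in 37. AT3G09440, an HSP70, had 85 ± 4.29 CPM in nuclei and 1239 ± 165 CPM in cytoplasm, and both strands at that locus carry an overlapping gene. Peptidyl-prolyl isomerases, which help proteins fold, divided as 9 nuclear and 21 cytoplasmic genes of 42. Their lower quartile lay at -2.44, and the cytosolic cyclophilins ROC1 and ROC5 differed by 49.9-fold and 31.1-fold, both toward the cytoplasm (edgeR adjusted p = 3.63e-21 and 7.04e-23).

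The filaments of the cytoskeleton and the motors that run on them parted as well. Genes described as actins, tubulins or their partners were higher in the cytoplasm in 28 of 34 cases. ACT7 (AT5G09810, chr5:3052062-3054691, plus strand), an actin of growing tissue, had 50.5, 55.3, 53.3, 50.2 and 56.1 CPM in the 5 nuclear libraries, against 796, 825, 685, 673 and 724 CPM in the 5 cytoplasmic libraries. The highest nuclear library was far below the lowest cytoplasmic one (13.9-fold, log2 ratio -3.80, approximate SE 0.10, edgeR adjusted p = 3.67e-22). The 3 nuclear members were VLN5 (2.17 ± 0.31), a bundler of actin filaments, AT3G20350 (0.64 ± 0.19) and AT2G42170. AT2G42170, of the actin family, had no count in any cytoplasmic library and 6.84 ± 2.81 CPM in the nuclei, which makes it at least 9.49-fold higher there against a floor of 3 counts over the group. Motor proteins were nuclear in 30 of 57 genes and cytoplasmic in 11 (median 0.50). Corrected for transcript length, however, their median was below that of all genes, at -0.38. XIK, a myosin that moves organelles, stood at 0.80 ± 0.12.

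All 4 tested metallothioneins, which bind metal ions through cysteines, were higher in the cytoplasm. MT2B (AT5G02380, chr5:506498-507244, minus strand) had 26.6, 28.4, 22.2, 20.2 and 28.4 CPM in the 5 nuclear libraries, against 2729, 2697, 2408, 2161 and 2460.1 CPM in the 5 cytoplasmic libraries, a 98-fold difference with no overlap (log2 ratio -6.62, approximate SE 0.14, edgeR adjusted p = 1.31e-23). MT3, MT2A and MT1C followed at -5.82 ± 0.13, -3.34 ± 0.15 and -2.33 ± 0.17 on the log2 scale. Genes for 14-3-3 proteins, which bind phosphorylated partners, were higher in the cytoplasm in 8 of 9 cases, each by at least 4-fold, GRF1 by 5.39-fold. Small GTPases, switches of membrane traffic, were cytoplasmic in 44 of 71 genes and nuclear in 7. The largest cytoplasmic difference among well-counted genes belonged to AT1G23130, a polyketide cyclase-like protein, with 19.4 ± 3.71 CPM in nuclei and 2059 ± 254 CPM in cytoplasm (107-fold, edgeR adjusted p = 2.39e-23). AT1G64370, a filaggrin-like protein of unknown function, followed with 73.5-fold.

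**Figure D2:**
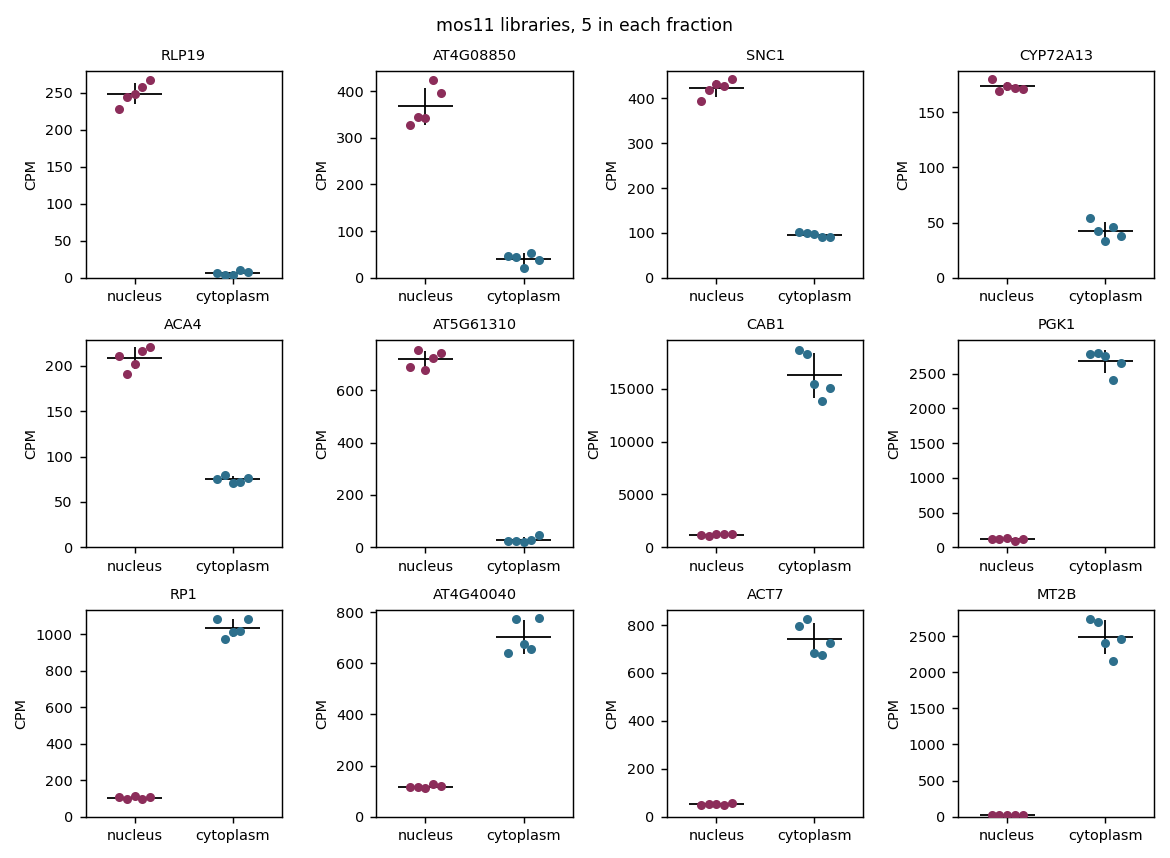
Level in CPM of 12 genes in each mos11 library, nuclei left and cytoplasm right, with the mean as a horizontal line and the SD as a vertical one (n = 5 each). The nuclear points of RLP19 lie between 228 and 267 CPM and its cytoplasmic points between 3.06 and 9.99 CPM. No gene shown has overlapping fractions, but the genes were picked from those called, some by a rule that asked for no overlap.

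Histones and the enzymes that act on them lay on opposite sides. Of 34 tested genes of the histone class, 32 were higher in the cytoplasm and 28 of these by at least 4-fold (median -3.02). AT4G40040, a histone H3 gene, had 116, 115, 111, 127 and 119 CPM in the 5 nuclear libraries, against 639, 772, 674, 656 and 776 CPM in the 5 cytoplasmic libraries. Cytoplasmic values were high in all 5 replicates (5.99-fold, log2 ratio -2.58, approximate SE 0.10, edgeR adjusted p = 4.47e-19). The single nuclear member, AT5G19490, had 5.78 CPM in nuclei and 1.21 CPM in cytoplasm, from 233 and 5 counts in all, and overlaps another gene on the same strand. Histone messages are short, with a median of 848 bases, and corrected for length the class median was -1.51 relative to all genes. Chromatin regulators were nuclear in 69 of 116 genes and cytoplasmic in 21 (median 0.79). HAC1, a histone acetyltransferase, stood at 309.6 ± 4.19 CPM in nuclei and 141 ± 15.1 CPM in cytoplasm (log2 ratio 1.13, approximate SE 0.10, edgeR adjusted p = 3.6e-11). Genes of DNA replication and repair were nuclear in 42 of 79 cases and cytoplasmic in 18. Both classes came close to the rest after the length correction, at 0.18 and 0.05 relative to all genes.

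Genes that make, move and destroy RNA were split. Of 21 mRNA export factors, 5 were nuclear and 9 cytoplasmic. Besides MOS11, the nuclear ones were SAC3A (2.39 ± 0.12) and SAC3B (1.29 ± 0.14), scaffolds of a complex at the pore, and THO2 (0.80 ± 0.10) and THO5 (0.66 ± 0.25) of the THO complex, which loads export factors onto new transcripts. On the cytoplasmic side were DSS1(I) (-3.29 ± 0.14) and DSS1(V) (-3.75 ± 0.21), small partners of the same pore complex, the helicase LOS4 (-1.66 ± 0.12) and the export adaptor ALY4 (-1.55 ± 0.14). UAP56b, a gene for the helicase partner of MOS11, was called cytoplasmic at -0.77 ± 0.12, a direction that turned round to 0.35 under scaling by library totals. Nucleoporins were close to the middle, with 6 nuclear and 7 cytoplasmic genes of 21. NUA, the pore protein of the nuclear basket, stood at 1.14 ± 0.10.

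SR proteins, which guide the splicing of pre-mRNA, were higher in the nucleus in 7 of 19 cases and lower there in 10. SR34b (AT4G02430, chr4:1068974-1072263, plus strand) had 92.8, 86.5, 92, 90.3 and 83.5 CPM in the 5 nuclear libraries, against 4.61, 2.42, 0, 0 and 2.24 CPM in the 5 cytoplasmic libraries. Replicates 3 and 4 of the cytoplasm had no count for it, the other 3 cytoplasmic libraries had 8 counts between them, and the fractions did not overlap (45.3-fold, log2 ratio 5.50, approximate SE 0.30, edgeR adjusted p = 1.38e-15). SR30 was higher in the nucleus by 3.43-fold and SCL33 by 3.23-fold, while RSZ22 was 4.51-fold higher in the cytoplasm. In the wider class of RNA-binding and splicing proteins, 84 of 247 genes were nuclear and 116 cytoplasmic. ATU2AF65A, which marks the end of introns, was 3.58-fold higher in the nucleus, and CRB, an RNA-binding protein of the chloroplast, 10.5-fold higher in the cytoplasm. RNA helicases were balanced, at 16 nuclear and 19 cytoplasmic genes of 60.

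The small RNA list divided as 6 nuclear and 8 cytoplasmic genes of 19, and the Dicer enzymes, which cut double-stranded RNA, were all among the nuclear ones. DCL1 (AT1G01040, chr1:23121-31227, plus strand), which makes microRNAs, had 162, 171, 157, 176 and 153 CPM in the 5 nuclear libraries, against 35.7, 42.3, 41.4, 40.0 and 37 CPM in the 5 cytoplasmic libraries. The nuclear libraries were the higher ones throughout, with no overlap (log2 ratio 2.06, approximate SE 0.13, edgeR adjusted p = 4.17e-14), although genes on both strands overlap the locus. DCL2 followed with 3.27 ± 0.17, DCL4 with 1.27 ± 0.21 and DCL3 with 0.86 ± 0.24. Of 17 genes of RNA decay, 3 were nuclear, UPF3 (0.67 ± 0.13), XRN4 (0.63 ± 0.13) and AHG2 (0.78 ± 0.29), and 6 cytoplasmic, with DCP5, which helps remove the cap, at -1.25 ± 0.09. AHG2 missed the threshold without mos11 cytoplasmic replicate 1 (edgeR adjusted p = 0.0563). Pentatricopeptide repeat proteins, which bind RNA inside chloroplasts and mitochondria, were nuclear in 107 of 165 genes (64.8%) and cytoplasmic in 19. AT1G19720, one of them, had 456 ± 7.10 CPM in nuclei and 70.7 ± 9.45 CPM in cytoplasm (6.47-fold, edgeR adjusted p = 3.17e-17). The class median of 1.34 was 0.84 relative to all genes after the length correction. Another 117 of the class did not reach the count filter.

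Transcription factor families were closer to the median of all genes. MYB factors were nuclear in 35 of 67 genes and cytoplasmic in 7 (median 0.65), bHLH factors in 39 and 18 of 76 (median 0.61). The bHLH factor HBI1, a promoter of growth, was 2.13-fold higher in the nucleus and UNE10 2.61-fold higher in the cytoplasm. WRKY factors had a median of 0.21, homeobox factors of 0.08. WRKY33, a regulator of defence against fungi, stood at 305 ± 32.6 CPM in nuclei and 109 ± 31.9 CPM in cytoplasm (log2 ratio 1.47, approximate SE 0.28, edgeR adjusted p = 2.89e-05), and genes on the other strand overlap it. Ethylene response factors were the family with more cytoplasmic than nuclear genes, 11 nuclear and 20 cytoplasmic of 45. Their median relative to all genes was -0.41, and 0.04 after the length correction. EBP, one of them, was 3.22-fold higher in the cytoplasm.

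Receptor classes had the most nuclear medians of the 48 function classes. Members of the receptor-like classes were taken by their gene descriptions, whether or not they act in immunity. Receptor-like proteins sit in the plasma membrane with a leucine-rich repeat domain outside and no kinase inside, and 31 of 32 tested genes (96.9%) were higher in the nucleus, 28 of them by at least 4-fold. A further 20 of the class did not reach the count filter, which a gene can pass through the nuclei alone. The class took 0.150% ± 0.00437 of the nuclear counts and only 0.00743% ± 0.00146 of the cytoplasmic counts. Members low in the nuclei could thus hardly be tested, and the count of nuclear members is limited by that. The class median was 3.49 in mos11 and 4.80 in Col-0. No gene of the class passed the edgeR test of that difference, which of all tested genes 0.66% passed with a higher and 0.919% with a lower ratio in mos11. With 32 genes and so few cytoplasmic counts, none passing says little about the difference in medians. RLP19 (AT2G15080, chr2:6533261-6537002, plus strand) had 228, 244, 248, 257 and 267 CPM in the 5 nuclear libraries, against 5.77, 3.63, 3.06, 9.99 and 7.84 CPM in the 5 cytoplasmic libraries. Nuclear values were high and close together while cytoplasmic ones rested on 26 counts in all, and the 39.5-fold difference (log2 ratio 5.30, approximate SE 0.21, edgeR adjusted p = 2.02e-18) left no overlap. RLP31 was 34.1-fold higher in the nucleus (66.9 ± 1.93 CPM in nuclei and 1.92 ± 1.26 CPM in cytoplasm, edgeR adjusted p = 6.7e-14). RLP36 had 13.3 to 22.6 CPM in the nuclei and no count in any cytoplasmic library, at least 25.8-fold higher in the nucleus against the floor of 3 counts. RLP20 likewise had no cytoplasmic count and was at least 8.35-fold higher in the nucleus. RLP51 alone was called cytoplasmic, at -0.92 ± 0.21, and turned to 0.19 under scaling by library totals.

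The first coding bases of genes from both sides of the division illustrate the sequence features described further on. Each is the first 105 coding bases in RefSeq TAIR10.1, with the most hydrophobic run of 11 codons in capitals. On the nuclear side these are RLP19 (chr2:6533764-6533868, plus strand), RLP31 (chr3:1538612-1538716, minus strand) and the cytochrome P450 CYP72A13 (chr3:4924960-4925064, plus strand). On the cytoplasmic side they are AT1G23130 (chr1:8200434-8200538, plus strand), ELIP2 (chr4:8418373-8418477, plus strand) and AT1G64370 (chr1:23888967-23889071, plus strand).
RLP19: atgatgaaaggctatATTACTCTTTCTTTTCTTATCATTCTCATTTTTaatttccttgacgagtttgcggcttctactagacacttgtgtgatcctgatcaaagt
RLP31: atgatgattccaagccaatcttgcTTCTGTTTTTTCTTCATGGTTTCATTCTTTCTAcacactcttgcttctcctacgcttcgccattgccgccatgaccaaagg
CYP72A13: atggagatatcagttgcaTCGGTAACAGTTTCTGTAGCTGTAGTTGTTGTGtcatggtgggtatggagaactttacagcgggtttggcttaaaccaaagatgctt
AT1G23130: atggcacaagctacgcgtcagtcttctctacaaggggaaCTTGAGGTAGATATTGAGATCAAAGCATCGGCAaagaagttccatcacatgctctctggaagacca
ELIP2: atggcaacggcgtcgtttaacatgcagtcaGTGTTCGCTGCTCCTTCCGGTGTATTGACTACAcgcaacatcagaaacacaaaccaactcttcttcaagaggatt
AT1G64370: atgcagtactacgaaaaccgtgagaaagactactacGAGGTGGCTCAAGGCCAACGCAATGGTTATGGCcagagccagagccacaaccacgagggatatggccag

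The mean Kyte-Doolittle hydropathy of the residues those capitals encode was 3.05 for RLP19, 2.58 for RLP31 and 2.63 for CYP72A13. It was 0.491 for AT1G23130, 1.31 for ELIP2 and -1.36 for AT1G64370. A threshold of 2 was used to call a hydrophobic start, and the 3 nuclear genes have one while the 3 cytoplasmic genes do not. That contrast was set by the choice of genes. RLP19 and RLP31 were picked from the largest nuclear differences because they have such a start. The cytoplasmic genes were picked from the largest cytoplasmic differences because they lack it. CYP72A13 was added as the P450 with the highest level among those called nuclear.

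Receptor-like kinases, which add a kinase domain inside the cell, were higher in the nucleus in 231 of 250 genes (92.4%), and 121 passed the 4-fold rule. Another 135 of the class did not reach the count filter, which a gene can pass through the nuclei alone. The count of nuclear members is limited by that. The class took 1.35% ± 0.0223 of the nuclear counts and 0.187% ± 0.0187 of the cytoplasmic counts. AT4G08850 (chr4:5636479-5640952, minus strand), a leucine-rich repeat kinase, had 328, 345, 343, 424 and 395 CPM in the 5 nuclear libraries, against 46.1, 43.6, 19.9, 53.3 and 38.1 CPM in the 5 cytoplasmic libraries. The lowest cytoplasmic library was replicate 3, and the fractions did not overlap (8.96-fold, log2 ratio 3.16, approximate SE 0.19, edgeR adjusted p = 1.23e-14). RLK902 was the 1 gene called cytoplasmic, at -0.49 ± 0.20 (edgeR adjusted p = 0.0305), and it turned to 0.63 under scaling by library totals. It also missed the threshold without mos11 nuclear replicate 3 or 4 or cytoplasmic replicate 1 or 4, where the adjusted p was 0.0601, 0.0555, 0.185 and 0.132.

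NLR proteins, the intracellular immune receptors that detect pathogen effectors, were nuclear in 105 of 109 genes (96.3%) and cytoplasmic in none at the threshold. Their share was 1.44% ± 0.0387 of the nuclear counts and 0.148% ± 0.00749 of the cytoplasmic counts. Another 49 genes of the class did not reach the count filter, which limits the count of nuclear members in the same way. AT1G58602 had 774, 907, 784, 835 and 829 CPM in the 5 nuclear libraries, against 107, 104, 116, 102 and 105 CPM in the 5 cytoplasmic libraries, each nuclear value several times the highest cytoplasmic one, though another gene overlaps it on the same strand. SNC1 (AT4G16890, chr4:9500271-9505972, minus strand), the receptor whose overactive form led to the discovery of MOS11, had 394, 419, 432, 427 and 444 CPM in the 5 nuclear libraries, against 101, 100.4, 98, 89.9 and 91.9 CPM in the 5 cytoplasmic libraries. The fractions were tight and did not overlap (4.39-fold, log2 ratio 2.14, approximate SE 0.16, edgeR adjusted p = 3.33e-12), and the log2 ratio of 2.14 stood beside 2.12 in Col-0, a difference of 0.02 ± 0.27, edgeR adjusted p = 0.996. The NLR median of 2.07 was 1.19 relative to all genes after correction for length, and the median length of these transcripts was 3808 bases.

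Signalling downstream of the receptors was mixed. Of 16 tested genes of salicylic acid immunity, 6 were nuclear and 4 cytoplasmic. SNC1, the salicylic acid receptors NPR3 (1.36 ± 0.17) and NPR4 (1.67 ± 0.20) and the signalling partner SAG101 (1.78 ± 0.22) were nuclear. On the cytoplasmic side stood EDS16 (-1.92 ± 0.19), the enzyme that makes the hormone's precursor, its transporter EDS5 (-0.74 ± 0.27), the signalling hub EDS1 (-1.31 ± 0.14) and the secreted marker of the response, PR1 (-3.46 ± 0.24), while EDS5 turned to 0.37 under scaling by library totals. MAP kinase cascade genes were nuclear in 16 and cytoplasmic in 6 of 31, with MPK17 3.06-fold higher in the nucleus. The cascade list had a median of 0.26 relative to all genes, which became -0.40 without the count filter and -0.09 after the length correction. Calcium-dependent kinases and calmodulins divided as 21 nuclear and 19 cytoplasmic genes of 62, with the kinase CIPK3 3.62-fold higher in the nucleus.

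**Figure D3:**
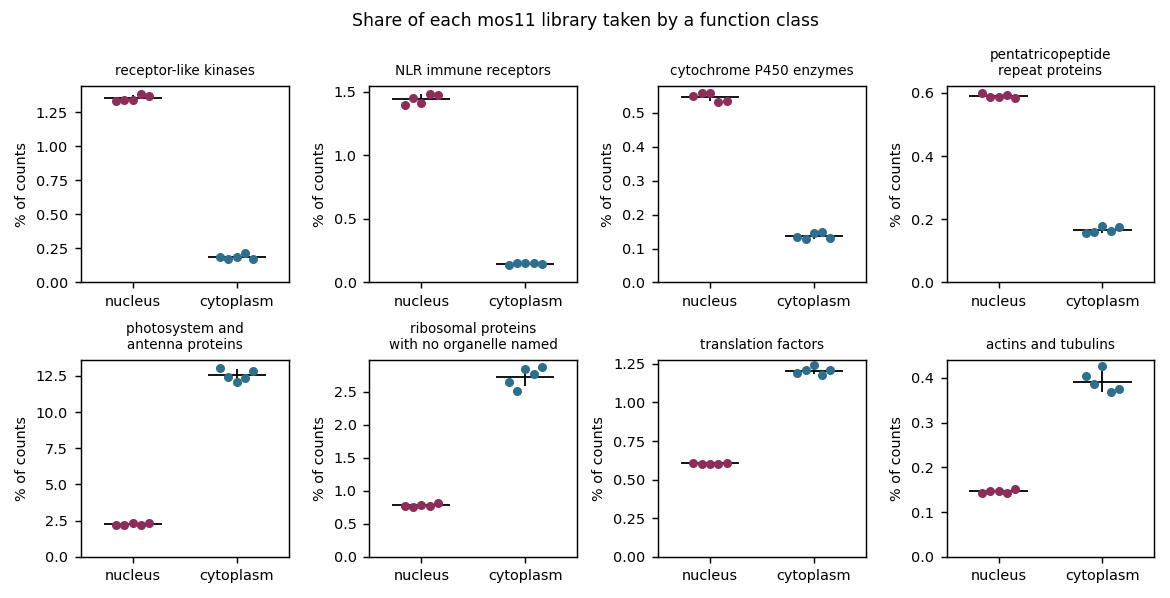
Share of all raw counts, without TMM factors, taken by 8 function classes in each mos11 library. Nuclei are left and cytoplasm right, with the mean as a horizontal line and the SD as a vertical one (n = 5 each). The 4 classes of the upper row take a larger share of every nuclear library and the 4 of the lower row a larger share of every cytoplasmic one.

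Membrane transport was nuclear for pumps and carriers and cytoplasmic for water channels. Of 17 genes for proton and calcium pumps, 16 were nuclear and none cytoplasmic at the threshold. ACA4 (AT2G41560, chr2:17332050-17337492, minus strand), a calcium pump of the vacuole, had 211, 191, 202, 216 and 221 CPM in the 5 nuclear libraries, against 75, 79.8, 70.5, 72.2 and 76.2 CPM in the 5 cytoplasmic libraries, with no overlap (2.78-fold, log2 ratio 1.47, approximate SE 0.14, edgeR adjusted p = 5.56e-10). Carriers of the major facilitator family, which move sugars, nitrate and phosphate, were nuclear in 81 of 118 genes and cytoplasmic in 6. G3Pp1, a glycerol phosphate carrier, was 2.45-fold higher in the nucleus, and PHT2;1, the phosphate carrier of the chloroplast envelope, 3.13-fold higher in the cytoplasm. ABC transporters were nuclear in 40 of 58 genes, ABCC1 of the vacuole by 3.61-fold. Of 21 tested aquaporins, 15 were cytoplasmic and none nuclear at the threshold. PIP1B (AT2G45960, chr2:18910081-18911982, plus strand), a water channel of the plasma membrane, had 187, 218, 202, 206 and 226 CPM in the 5 nuclear libraries, against 879.8, 831, 806, 917 and 782 CPM in the 5 cytoplasmic libraries (log2 ratio -2.02, approximate SE 0.10, edgeR adjusted p = 1.62e-16), the nuclear libraries all low. GAMMA-TIP of the vacuole was 5.17-fold higher in the cytoplasm. In shares of counts, aquaporins were the 1 class of 48 whose libraries overlapped between the fractions. Of the others, 31 classes were higher in every nuclear library and 16 in every cytoplasmic one. These shares are of raw library totals without TMM factors, and their side can differ from that of the calls. Vesicle coat and SNARE proteins held a larger share of every nuclear library, though 54 of their 116 genes were called cytoplasmic and 26 nuclear.

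Enzymes that build the cell wall were mostly nuclear. Cellulose and callose synthases were higher in the nucleus in 26 of 32 genes, with CEV1 (-0.31 ± 0.11) and IRX3 (-0.87 ± 0.31), both of the cellulose synthase family, on the cytoplasmic side, although these turned to 0.81 and 0.24 under scaling by library totals. Without mos11 cytoplasmic replicate 4, CEV1 missed the threshold (edgeR adjusted p = 0.254). Enzymes of pectin and xyloglucan were nuclear in 68 of 113 genes and cytoplasmic in 8. TCH4, which rejoins xyloglucan chains and responds to touch, stood at 80.1 ± 12.3 CPM in nuclei and 9.01 ± 7.99 CPM in cytoplasm (log2 ratio 3.08, approximate SE 0.30, edgeR adjusted p = 6.73e-10). BGAL1, a galactosidase of the wall, had 1362 ± 219 CPM in nuclei and 215 ± 44.6 CPM in cytoplasm and was 6.30-fold higher in the nucleus. Lipid transfer proteins, which are small and secreted, went the other way: 32 of 38 genes were higher in the cytoplasm. Their median relative to all genes was -1.98, and -0.64 after the length correction. The 2 nuclear ones were LTP, at 8.27-fold, and AT1G55260 (1.06 ± 0.33). Class III peroxidases had 10 nuclear and 11 cytoplasmic genes of 37, with PRXR1 2.43-fold higher in the cytoplasm. Proteins of vesicle coats and SNAREs were nuclear in 26 and cytoplasmic in 54 of 116 genes.

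Enzymes of detoxification and specialised metabolism divided by family. Cytochrome P450 enzymes, held on the endoplasmic reticulum by an anchor at their start, were nuclear in 77 of 110 genes and cytoplasmic in 8. Another 138 of the class did not reach the count filter. CYP72A13 (AT3G14660, chr3:4924777-4927607, plus strand) had 180.4, 169.7, 174, 172 and 171 CPM in the 5 nuclear libraries, against 54.2, 42.3, 33.7, 45.5 and 38.1 CPM in the 5 cytoplasmic libraries. Its nuclear values were high in all replicates (4.02-fold, log2 ratio 2.01, approximate SE 0.14, edgeR adjusted p = 3.94e-13). CYP89A2 was 3.47-fold higher in the cytoplasm. Glutathione transferases, soluble enzymes that tag toxins, were cytoplasmic in 28 of 37 genes and nuclear in 6, with GSTU20 51.3-fold and GSTF8 6.10-fold higher in the cytoplasm (edgeR adjusted p = 1.79e-19 and 3.13e-16). Glycosyltransferases that use UDP sugars were cytoplasmic in 46 of 80 genes and nuclear in 18.

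Hormone lists held genes of both sides. Of 35 genes of abscisic acid and cold, 12 were nuclear and 18 cytoplasmic. HAB1 (AT1G72770, chr1:27389948-27393327, plus strand), a phosphatase that holds the abscisic acid pathway off, had 210.1, 225, 213, 241 and 234 CPM in the 5 nuclear libraries, against 42.7, 48.4, 38.3, 53.3 and 45.9 CPM in the 5 cytoplasmic libraries, with all nuclear values high (log2 ratio 2.29, approximate SE 0.14, edgeR adjusted p = 3.37e-14). ABI2, a phosphatase of the same kind, was 2.28-fold higher in the nucleus, while the receptor PYL4 was 3.85-fold higher in the cytoplasm. The P450 enzymes that break the hormone down were nuclear: CYP707A1 at 2.31 ± 0.31 and CYP707A2 at 1.21 ± 0.23. Small proteins that guard cells against cold and drying were cytoplasmic: COR47 by 12.6-fold, ERD10 by 11.7-fold, LTI30 by 26-fold, COR15A by 37.9-fold, KIN1 by 55-fold and KIN2 by 52.7-fold. In the jasmonate list 1 of 20 genes was nuclear, TCH4 above, and 11 were cytoplasmic. Its chloroplast enzymes AOS (-3.02 ± 0.19), AOC1 (-2.82 ± 0.19), AOC2 (-3.03 ± 0.26), AOC3 (-2.07 ± 0.27) and AOC4 (-2.49 ± 0.20) were all on the cytoplasmic side. The AOC genes are similar copies for the same step, and their reads may have been split between them.

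The clock list had 8 nuclear and 4 cytoplasmic genes of 15, with a median of 0.55 relative to all genes and of 0.10 after the length correction. AT3G54500, known as LNK2 and a partner of clock activators, had 1071, 1112, 1059, 1055 and 1063 CPM in the 5 nuclear libraries, against 115, 163, 124, 137 and 136 CPM in the 5 cytoplasmic libraries. The nuclear libraries were all several times the cytoplasmic ones (log2 ratio 2.99, approximate SE 0.12, edgeR adjusted p = 1.5e-18), and 2 genes on the other strand overlap it. PRR7 and RVE8, a repressor and an activator of the clock, differed by 5.64-fold and 3.78-fold, both toward the nucleus. LHY was called cytoplasmic at -0.66 ± 0.13 but turned to 0.46 under scaling by library totals. GI (-0.77 ± 0.17), PCL1 (-1.01 ± 0.30) and ZTL (-0.54 ± 0.12) were the other cytoplasmic clock genes, and they turned to 0.35, 0.10 and 0.58 under that scaling. PCL1 missed the threshold without mos11 cytoplasmic replicate 1 (edgeR adjusted p = 0.0750). Of 19 genes of light signalling 15 were nuclear, among them the blue light receptor PHOT2 (0.99 ± 0.13). PIF4 (AT2G43010, chr2:17886101-17889087, plus strand), a growth factor of the shade and warmth response, had 258, 236, 247, 263 and 265 CPM in the 5 nuclear libraries, against 63.4, 50.8, 78.1, 71.1 and 81.8 CPM in the 5 cytoplasmic libraries, without overlap (log2 ratio 1.88, approximate SE 0.16, edgeR adjusted p = 2.86e-11), and PIF7 was 2.76-fold higher in the nucleus. HY5, which acts against the PIF factors in light, was the 1 cytoplasmic member, at -1.91 ± 0.21. This list's median of 0.76 became -0.12 relative to all genes after the length correction.

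Flowering genes were nuclear in 13 of 20 cases. FCA, an RNA-binding regulator of the autonomous pathway, stood at 1.67 ± 0.16, LD of the same pathway at 1.98 ± 0.16, the repressor AGL31 at 2.41 ± 0.16 and SPL10, a target of a microRNA, at 2.56 ± 0.24. FVE (-1.94 ± 0.12) and AGL24 (-0.95 ± 0.24) were the cytoplasmic ones, of which AGL24 turned to 0.16 under scaling by library totals.

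Long non-coding RNAs were nuclear in 142 of 171 tested genes, 121 of them by at least 4-fold, with a median of 3.10. The other 3309 in the annotation did not reach the count filter, which a gene can pass through the nuclei alone. AT3G06325 had 713, 573, 916, 719 and 747 CPM in the 5 nuclear libraries, against 32.3, 15.7, 19.9, 21.1 and 22.4 CPM in the 5 cytoplasmic libraries, high in every nuclear library (32.6-fold, log2 ratio 5.03, approximate SE 0.21, edgeR adjusted p = 6.44e-18). AT3G59068 was 43.5-fold higher in the nucleus. AT1G27921 had 77.5 to 92.1 CPM in the nuclei, and all 4 of its cytoplasmic counts came from replicate 4. Of the 13 cytoplasmic ones, AT1G05163 (chr1:5297847-5298571, minus strand) dominated, with 1047, 993, 776, 975 and 1026 CPM in the 5 nuclear libraries, against 55978, 58384, 48683, 47367 and 47852 CPM in the 5 cytoplasmic libraries. It took 0.118% to 0.159% of the nuclear counts and 3.38% to 3.99% of the cytoplasmic counts, and a further non-coding gene lies inside it. In shares of counts the long non-coding RNAs were therefore higher in the cytoplasm, with 0.909% ± 0.0442 of the nuclear counts and 4.00% ± 0.287 of the cytoplasmic counts.

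The gene with the most cytoplasmic counts was RR3 (AT2G41310, chr2:17221840-17224880, plus strand), a response regulator of cytokinin signalling, with 1836, 1662, 1460.3, 1907 and 1586 CPM in the 5 nuclear libraries, against 85312, 85922, 72474, 73863 and 75576 CPM in the 5 cytoplasmic libraries. It held 0.223% to 0.289% of the nuclear counts and 5.21% to 5.87% of the cytoplasmic ones, and was 46.5-fold higher in the cytoplasm (log2 ratio -5.54, approximate SE 0.10, edgeR adjusted p = 1.28e-24). A long non-coding gene lies on the other strand within this locus, and without the strand setting of the counting its reads cannot be told apart from those of RR3. In the nuclei AT2G35750 had the most counts, at 2126 ± 215 CPM in nuclei and 273 ± 59.8 CPM in cytoplasm, with 2 genes inside it on the same strand, followed by AT4G28080 at 2092 ± 80.9 CPM in nuclei and 1210.0 ± 58.3 CPM in cytoplasm, with 2 on the other strand. AT2G01008, near the start of its chromosome, showed the largest nuclear difference among well-counted genes (528 ± 73.5 CPM in nuclei and 5.59 ± 2.23 CPM in cytoplasm, 94.3-fold), and shares its strand with an overlapping gene.

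Across all tested genes the ratio moved with transcript length. In 4 groups of genes from the shortest to the longest transcripts, the median ratio was -1.11, -0.04, 0.51 and 0.86, with the groups ending at 1359, 1835, 2443 and 16593 bases. Genes with 1 exon had a median of -0.42 and those with 10 or more 0.69. Within the longest group these were 0.84 and 0.87, and within the shortest -1.41 and 0.06. The length correction brought some class medians closer to that of all genes. Relative to all genes, ribosomal proteins went from -2.91 to -1.50 and ubiquitin-conjugating enzymes from -1.21 to -0.31. Proton and calcium pumps went from 1.49 to 0.73 and ABC transporters from 0.96 to 0.37. Actins and tubulins hardly moved, from -2.50 to -2.44. Aminoacyl-tRNA synthetases moved away, from -0.62 to -1.09.

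Features of the encoded protein also moved with the ratio inside every length group. Proteins were translated from the coding sequence, and a membrane-spanning stretch was counted where 19 residues had a mean hydropathy of at least 1.6. Genes with no such stretch had a median of -0.17 (10107 genes), those with 1 had 0.50 (3298), those with 2 to 5 had 0.94 (1895) and those with 6 or more had 1.52 (729). The same order held in each of the 4 length groups. In the longest group, 84.7% of genes with 6 or more stretches were higher in the nucleus and 56% of those with none. Genes are not independent replicates, and these medians carry no test.

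A hydrophobic start, as in the sequences shown above, is the usual sign of a signal peptide or an anchor that brings a ribosome to the endoplasmic reticulum. The 2655 genes with such a start had a median ratio of 1.09, and the 13374 without one had -0.02. From the shortest to the longest group the medians were -0.36, 0.95, 1.33 and 1.71 with the start, and -1.28, -0.24, 0.28 and 0.70 without it. Genes of the shortest group thus had a cytoplasmic median with or without the start.

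**Figure D4:**
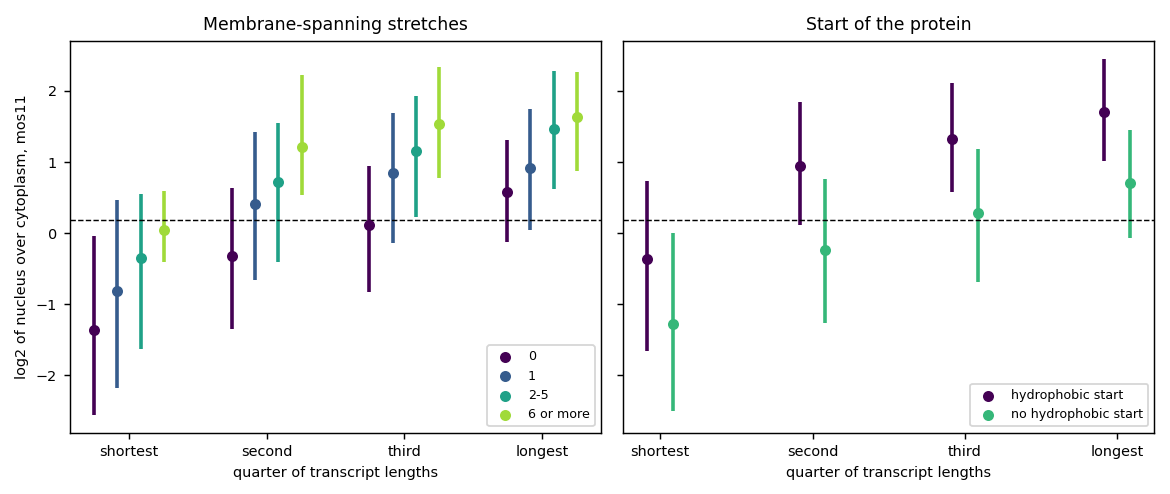
Median log2 ratio of nucleus over cytoplasm in mos11 (points) with quartiles (bars) in 4 groups of transcript length, for genes grouped by the number of membrane-spanning stretches (left) and by a hydrophobic start of the protein (right). The dashed line is the median of all tested genes, and within each length group the median climbs from 0 to 6 or more stretches; among the longest transcripts it is 1.63 at 6 or more and 0.57 at none.

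The location written in the gene notes gave a further view for 8826 tested genes. Genes of the endomembrane system had a median of 1.2, those of the ribosome -2.71, of the cytosol -1.93, of the nucleolus -1.94 and of the nucleus 0.05. Plasma membrane genes stood at 0.92 where the protein had at least 2 membrane-spanning stretches and at -1.11 where it had none. Thylakoid genes were cytoplasmic with or without such stretches. Their median was -1.76 with at least 2 stretches (32 genes) and -2.09 with none (129 genes). What lies behind these differences between locations was not tested.

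The division in mos11 was set beside that in Col-0 by testing the difference between the log2 ratios for each gene. The ratio differed for 256 genes at the threshold, 107 of them (0.66% of those tested) with a higher ratio in mos11 and 149 (0.919%) with a lower one. The split turned with the scaling: 142 were higher and 109 lower in mos11 with median-of-ratios factors, and 54 higher and 406 lower with library totals. Between the 5th and the 95th percentile the ratio spanned 5.95 in mos11 and 6.76 in Col-0 on the log2 scale. The biological coefficient of variation was 6.13% in the nuclei and 10.8% in the cytoplasm of mos11, and 17.9% and 23.8% in those of Col-0. Leaving out 1 library at a time, the number of such genes ran from 132 to 333. It fell by more than 1.5 times without mos11 cytoplasmic replicate 4 (132) or 2 (159), without mos11 nuclear replicate 2 (147), 5 (152) or 3 (160), and without Col-0 cytoplasmic replicate 4 (154) or nuclear replicate 4 (163).

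Photosystem and antenna proteins were the class in which most ratios differed: 21 of 52 genes had a higher ratio in mos11, that is, a less cytoplasmic one, and none a lower one. The class median was -3.49 in mos11 and -4.11 in Col-0. Scaled by library totals, 8 genes of the class had a higher ratio and 2 a lower one. The median difference, mos11 minus Col-0, was 0.45 in this class and -0.09 over all genes. It was positive in some other cytoplasmic classes, at 0.25 for ribosomal proteins, 0.22 for the respiratory chain and 0.27 for the Calvin cycle. In these, 3, 0 and 1 genes were called higher. The median difference was -0.05 for translation factors and -0.07 for heat shock proteins and chaperones, slightly above that of all genes. Aquaporins, at -0.24, lay below it. Over all genes the ratios lay closer together in mos11 than in Col-0, and the part of that in the class difference was not tested. LHCB2.1 had log2 ratio -4.22 ± 0.11 in mos11 and -4.76 ± 0.12 in Col-0, a difference of 0.54 ± 0.14, edgeR adjusted p = 0.0489, and CA1, the carbonic anhydrase, had log2 ratio -3.45 ± 0.17 in mos11 and -4.68 ± 0.20 in Col-0. Receptor-like kinases had a lower median in mos11 than in Col-0, 1.93 against 2.52, and 5 of 250 genes passed the test, all with a lower ratio in mos11. NLR receptors had medians of 2.07 in mos11 and 2.52 in Col-0, and none of their 109 genes passed. Receptor-like proteins had medians of 3.49 and 4.80, and none of their 32 genes passed. Of all tested genes, 0.919% passed with a lower ratio in mos11, so such small counts say little about these classes.

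Single genes with the strongest differences are plotted beside their Col-0 values. MOS11 led, with log2 ratio 4.35 ± 0.17 in mos11 and 0.90 ± 0.13 in Col-0, a difference of 3.45 ± 0.23, edgeR adjusted p = 1.76e-10. UBC11, a ubiquitin-conjugating enzyme, followed with log2 ratio -0.86 ± 0.20 in mos11 and -3.33 ± 0.21 in Col-0 (2.47 ± 0.27, edgeR adjusted p = 6.12e-06), where the mos11 value alone turned to 0.26 under scaling by library totals. FBP, a fructose bisphosphatase of sucrose synthesis, was less cytoplasmic in mos11 (log2 ratio -0.56 ± 0.11 in mos11 and -1.89 ± 0.13 in Col-0, difference 1.33 ± 0.17, edgeR adjusted p = 5.23e-05), and its mos11 value turned to 0.56 under that scaling. AT3G10020 and AT1G67870, a glycine-rich protein, were likewise less cytoplasmic, with differences of 1.84 ± 0.24, edgeR adjusted p = 9.16e-05 and 1.12 ± 0.14, edgeR adjusted p = 6.96e-05. Lower ratios in mos11 were found for AT2G35750 (-2.14 ± 0.20, edgeR adjusted p = 4.42e-07), for AT1G60200, a splicing factor with a PWI domain (-1.89 ± 0.20, edgeR adjusted p = 1.75e-06), and for AT2G39580, a zinc finger protein (-1.96 ± 0.30, edgeR adjusted p = 0.000732). PHYE, the phytochrome E photoreceptor, had log2 ratio 0.68 ± 0.13 in mos11 and 2.05 ± 0.17 in Col-0 (-1.37 ± 0.22, edgeR adjusted p = 0.00132). The non-coding AT4G04565 was more cytoplasmic in mos11, at log2 ratio -5.17 ± 0.13 in mos11 and -4.05 ± 0.13 in Col-0.

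A few genes of the export, small RNA and clock lists were among those that differed. In the export list 1 of 21 genes had a lower ratio in mos11 and 1, MOS11, a higher one. The small RNA list had 1 lower of 19 and the clock list 2 of 15, LHY and AT3G54500, with none higher. Of all tested genes 0.919% had a lower ratio, and counts so small say little about a list. SAC3B had log2 ratio 1.29 ± 0.14 in mos11 and 2.61 ± 0.18 in Col-0 (-1.31 ± 0.24, edgeR adjusted p = 0.00474), DCL1 log2 ratio 2.06 ± 0.13 in mos11 and 2.95 ± 0.15 in Col-0 (-0.89 ± 0.21, edgeR adjusted p = 0.0262) and LHY log2 ratio -0.66 ± 0.13 in mos11 and 0.30 ± 0.18 in Col-0 (-0.96 ± 0.22, edgeR adjusted p = 0.0266). The ratios of SAC3B, DCL1 and LHY were each lower in mos11. For SAC3B, mos11 cytoplasmic replicate 3 stood apart, at 52.1 CPM against 26.6 to 32.2 CPM in the others.

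**Figure D5:**
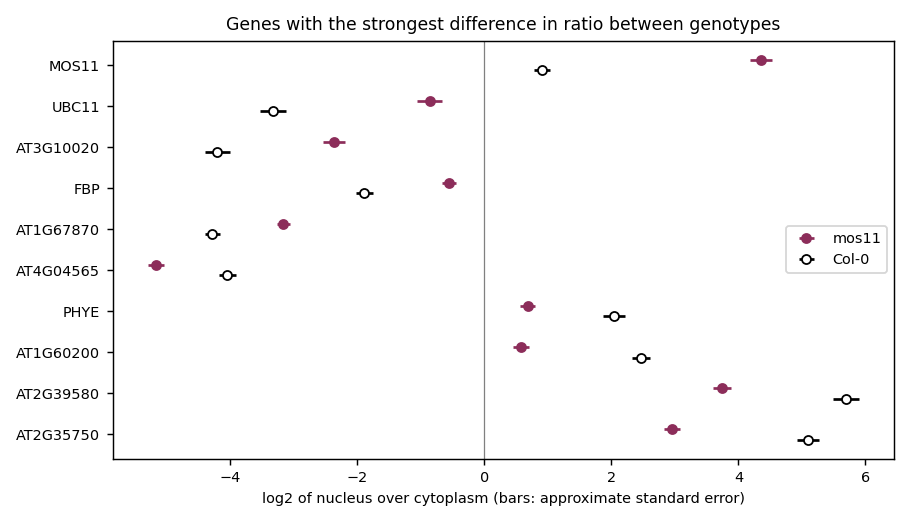
Log2 ratio of nucleus over cytoplasm in mos11 (filled points, upper of each pair) and Col-0 (open circles, lower) for the 10 genes with the smallest p of the difference, 5 in each direction, with approximate standard errors as bars. MOS11 stands at 4.35 in mos11 and 0.90 in Col-0.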

How the data were processed

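The deposited table holds raw read counts of 30901 genes in 18 libraries, which stand for 28 labelled samples, since some libraries were run on more than 1 flow cell. No source used here says how those runs were pooled. The submitters' processing notes name the build TAIR10 and the tools featureCounts, UMI-tools, Picard and STAR 2.7.8a, with no roles and no strand setting. Per the labels' protocols, rRNA was depleted and ERCC RNA was added. Organelle genes were not analysed here.

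The counts were fitted with edgeR 4.0.16 in R 4.3.3 (filterByExpr, TMM, quasi-likelihood test, Benjamini-Hochberg adjustment) over all 4 groups of fraction and genotype. The approximate SE is the log2 ratio over the square root of F. Names, coordinates, lengths and coding sequences came from RefSeq TAIR10.1, to which all 30901 genes were matched. Sequence features were computed with Python 3.11.15 and Biopython 1.88. The test was also run on counts simulated from the fitted levels and spread, with known changes. The alternatives were DESeq2 1.42.0, other scalings and filters, a replicate block, a 1.5-fold test, genes without overlaps, a length correction and each library left out. Scaling by library totals and the location notes were added after the data were seen.

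Genes were named as the 12 largest differences in each direction (mean log2 CPM of at least 3, no overlap), the 10 highest in each fraction, the highest called member of each class in each direction, all tested members of lists under 10 members, MOS11, and the 5 smallest p of the genotype difference in each direction. The members and lists were chosen with earlier results of these data known. The text also names some genes outside this rule, picked once their values had been seen: RLP36, PSBP-2, AT2G28605, DCL2, DCL3, DCL4, CYP707A1, CYP707A2, HAB1, ABI2, PYL4, AOC1, AOC2, AOC3, AOC4, PIF4, PIF7, PRR7, SAC3A, SAC3B, LOS4, DSS1(I), DSS1(V), ALY4, SR30, SCL33, RSZ22, PGK1, FBA2, GAMMA-TIP, PR1, AGL31, SPL10, LD, GSA2, GUN4, RVE8, RLP20, COR15A, LTI30, ERD10, NPR3, NPR4, SAG101, EDS16, AT5G15260, AT5G19025, AT3G06180, AT4G38090, AT1G62920, PA200, UBC37, VLN5, AT2G42170, AT1G55260, EDS5, ZTL, GI, PCL1, AGL24, THO5, UPF3 and AHG2.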

Additional observations from a re-analysis of the deposited data

Results flagged for a closer look

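A single library lay far from the other 4 of its fraction in 26 of 442 groups of 5 checked, where chance gives about 1 in 20. Among nuclear levels these were AT3G59068 (166 CPM in nuclear replicate 2), AT1G23130 (26 CPM in nuclear replicate 5), AT1G05163 (776 CPM in nuclear replicate 3), AT3G09440 (77.5 CPM in nuclear replicate 4), AT3G54500 (1112 CPM in nuclear replicate 2), LHY (167 CPM in nuclear replicate 2), AGL31 (89.1 CPM in nuclear replicate 1), GSA2 (22.4 CPM in nuclear replicate 3) and PCL1 (7.73 CPM in nuclear replicate 1). Among cytoplasmic levels they were AT1G27921 (4.44 CPM in cytoplasmic replicate 4), AT1G23130 (2497 CPM in cytoplasmic replicate 2), KIN1 (248 CPM in cytoplasmic replicate 1), UBC23 (17.3 CPM in cytoplasmic replicate 1), ATU2AF65A (198 CPM in cytoplasmic replicate 4), EBP (445 CPM in cytoplasmic replicate 1), AT3G20350 (26 CPM in cytoplasmic replicate 3), ABI2 (29.1 CPM in cytoplasmic replicate 3), SAC3B (52.1 CPM in cytoplasmic replicate 3), AGL31 (25.4 CPM in cytoplasmic replicate 2), SPL10 (24.5 CPM in cytoplasmic replicate 3) and AT5G19025 (12.3 CPM in cytoplasmic replicate 3). The shares of counts with such a library were those of heat shock proteins and chaperones (1.30% in cytoplasmic replicate 2), NLR immune receptors (0.135% in cytoplasmic replicate 1) and calcium-dependent kinases and calmodulins (0.374% in nuclear replicate 2). Total counts stood apart for nuclear replicate 2, with 18213517, and for cytoplasmic replicate 3, with 907270.

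The test of the difference between mos11 and Col-0 was passed by 21 of the genes named. The log2 ratio, mos11 minus Col-0, was higher in mos11 for MOS11 (3.45), UBC11 (2.47), AT3G10020 (1.84), FBP (1.33), CA1 (1.22), GSTF8 (1.21), AT1G67870 (1.12), PSRP5 (0.84) and LHCB2.1 (0.54). It was lower in mos11 for AT2G35750 (-2.14), AT2G39580 (-1.96), AT1G60200 (-1.89), AT5G25560 (-1.52), PHYE (-1.37), SAC3B (-1.31), AT4G04565 (-1.12), AT3G54500 (-1.04), LHY (-0.96), DCL1 (-0.89), PRXR1 (-0.76) and AT1G05163 (-0.64).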

How the results depend on the processing

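Of 4577 repeats over 172 named genes, 4505 kept the direction and the call, 59 lost the call and 13 changed direction. All of the changes in direction came with library totals: RLK902 (0.63), RLP51 (0.19), CEV1 (0.81), UAP56b (0.35), LHY (0.46), IRX3 (0.24), UBC11 (0.26), FBP (0.56), EDS5 (0.37), ZTL (0.58), GI (0.35), PCL1 (0.10) and AGL24 (0.16). That scaling gave 11060 nuclear and 2967 cytoplasmic genes, 5257 and 759 by the 4-fold rule, and 460 (54 higher and 406 lower in mos11) ratio differences. Without the count filter 3071 genes were 4-fold nuclear. Ratio differences numbered 578 (317 higher and 261 lower in mos11) with DESeq2, 8 (5 higher and 3 lower in mos11) in a 1.5-fold test and 629 (326 higher and 303 lower in mos11) with the replicate block. The labels do not tie the replicate numbers to a shared plant or day. Same-numbered nuclear and cytoplasmic libraries correlated at 0.016 to 0.064, and 4 of 5 nuclear libraries correlated best with their own number, a hint from the data and not from the design. Among genes that overlap no other gene, of which fewer were tested, 4334 were nuclear, 1251 and 1436 passed the 4-fold rule, and 134 (57 higher and 77 lower in mos11) differed. Leaving out 1 library at a time gave 6157 to 6987 nuclear and 5408 to 5936 cytoplasmic genes, 1850 to 2438 and 2059 to 2222 by the 4-fold rule, and 132 to 333 ratio differences (58 to 150 higher, 67 to 199 lower). The median of genes with a hydrophobic start minus that of the others was 1.11 on the log2 scale, 0.73 without the filter, 1.01 with a filter on CPM, and 0.92, 1.19 and 1.01 in the shortest, second and longest of the 4 length groups. Class medians relative to all genes changed sign without the filter for RING and U-box proteins (-0.014), NAC factors (-0.11), bZIP factors (-0.13), MAP kinase cascade (-0.40), kinesins and myosins (-0.053) and epidermal markers (-0.13), without overlapping genes for mRNA export factors (0.020), and under the length correction for ethylene response factors (0.036), MAP kinase cascade (-0.091), class III peroxidases (0.016), kinesins and myosins (-0.38), photoreceptors and light signalling (-0.12) and epidermal markers (-0.41). Apart from the sets of genes tested, the cause was not tested. Cytoplasmic depth limits low genes: 74 tested genes had no count in the mos11 cytoplasm.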
